A study of Mus musculus with 2 samples.

Results

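The 36 genes described here are interferon response and peptide loading genes, taken as a list of names and found as columns in both deposited tables, which share 24393 gene columns. They comprise 4 transcription factors, 4 sensors of nucleic acid with their regulators, 16 effectors typical of the type I interferon response, 8 GTPases typical of the interferon-gamma response, and 4 genes that load peptides onto MHC class I or drive that machinery. Their transcripts were counted in single cells from the marrow of ICR mice, 7 to 8 weeks of age, after magnetic beads had removed cells carrying mature lineage markers, on the BD Rhapsody platform. The hypoxia group lived in an altitude chamber for 13 days, under a pressure of 52.93 kPa (an altitude of 5000 m, according to the labels) and with oxygen at 19.5%. The control group was killed when it reached Xining, so it was not kept alongside the hypoxia group for the same time. Hypoxia, time, age, handling and differences between the animals of each group, genetic ones included, cannot be told apart in this design. Each group was 1 library, the sources used here do not give its number of mice, and no value below has a replicate check.

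Interferons are secreted proteins that cells release on sensing viral or stray nucleic acid. Type I interferons signal through a complex that includes Stat2 and Irf9 and binds the interferon-stimulated response element (ISRE) in promoters. Interferon-gamma acts on promoters through the gamma-activated site (GAS) and through Irf1. In bone marrow, interferons are known to bring quiescent stem cells into cycle and to shift progenitors towards myeloid cells. MHC class I peptide loading is one of the programmes they raise, through Irf1 and the class I transactivator Nlrc5.

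These elements were looked for in the promoters of the listed genes. RefSeq promoters (GRCm38.p6) were matched for 29 of the 36 genes and searched on both strands over the 250 bases before the start. The ISRE core, read as GAAA, any 2 bases and GAAA, was found in 14 of the 29 (48.3%), against 936 of 27025 promoters of all genes (3.46%). By role it was found in 7 of 13 type I-type effectors (53.8%), 6 of 7 GTPases (85.7%), 1 of 4 transcription factors, 0 of 3 sensors and 0 of 2 peptide loading genes. The GAS core, read as TTC, any 3 bases and GAA, was found in 9 of 29 (31.0%) against 8.13% of all promoters, in 5 of 13 effectors and 3 of 7 GTPases. Matches of the 2 motifs overlapped in Bst2. A match is a run of letters and not a measured binding site. Of the genes picked for printing, Ifi47, Oasl2 and Tap1 held no match of either motif, and Nlrc5 had no promoter matched. The windows printed are from other genes on which the results rest. They belong to effectors found largely in 1 cell class or with large ratios, to some GTPases that differed between libraries, and to Irf1. Each runs 5′ to 3′ along the gene's strand, and capitals mark the motif matches, ISRE in all but Ifi202b and Irf1, where they mark GAS. The windows of Irgm2 and Igtp also hold a GAS match each, left in lower case, that begins 75 and 45 bases before the start.
Rsad2: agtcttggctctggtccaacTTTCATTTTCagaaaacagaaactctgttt
Isg15: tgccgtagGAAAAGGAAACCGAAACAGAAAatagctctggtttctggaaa
Ifit1: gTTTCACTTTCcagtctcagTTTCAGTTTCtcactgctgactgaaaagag
Phf11b: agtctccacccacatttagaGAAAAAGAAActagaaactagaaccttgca
Ifi202b: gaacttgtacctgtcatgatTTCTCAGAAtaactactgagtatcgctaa
Irgm2: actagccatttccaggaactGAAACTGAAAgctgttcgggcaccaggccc
Igtp: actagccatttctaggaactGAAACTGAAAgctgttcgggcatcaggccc
Gbp3: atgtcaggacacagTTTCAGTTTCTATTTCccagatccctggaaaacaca
Irf1: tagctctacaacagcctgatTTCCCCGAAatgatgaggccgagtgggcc
They lie, in the same order, at chr12:26456543-26456592 (minus strand), chr4:156200855-156200904 (minus), chr19:34640784-34640833 (plus), chr14:59341351-59341400 (minus), chr1:173982964-173983012 (minus), chr11:58214893-58214942 (plus), chr11:58199502-58199551 (plus), chr3:142559985-142560034 (plus) and chr11:53769904-53769952 (plus). Isg15 holds 3 overlapping ISRE matches and Gbp3 holds 2. Irgm2 and Igtp, 2 neighbouring GTPase genes, have windows identical at 48 of 50 bases. They also overlap on the same strand (Igtp at chr11:58199556-58207591 and Irgm2 at chr11:58199618-58222782), so how their reads were divided is uncertain.

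The deposited tables held 6406 hypoxia cells with 137504361 molecular counts (UMIs) and 3956 control cells with 121415081. After filtering 6280 and 3917 cells remained, at a median of 21345 and 32156 UMIs, and 23 cell indices occurred in both tables. Cells were assigned to classes by per-cell scores over marker lists that contain none of the 36 genes. The lists are not free of the interferon pathway, since the monocyte list holds Irf8, a signalling gene read further below. Class names end in "-like" because they were rebuilt here. Of the retained cells 682 hypoxia and 398 control cells reached no class. The 7 classes with at least 50 cells in both libraries were compared between libraries, and 11 classes with at least 25 cells were used for levels. Leading genes fitted each name (Car1, Ermap and Rhd in erythroid progenitor-like cells, Ly6c2, F13a1 and Ccr2 in monocyte-like cells, Prss34 and Mcpt8 in basophil/mast-like cells). The HSC/MPP-like class, for stem cells and multipotent progenitors, had Hlf among its top 10, but its first 2 genes were Dntt and Flt3, both on the lymphoid-primed list, and Flt3 on both.

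Levels are a gene's UMIs divided by all UMIs of the class and scaled to CPM, with hypoxia first and control second throughout, and brackets hold exact 95% Poisson intervals that cover counting error only. CPM is not corrected for gene length, so levels are compared between classes and libraries, not between genes. For 20 of the 36 genes the class with the highest level was the same in both libraries. T/NK/ILC-like cells held 6 of these 20, megakaryocyte-like cells 4, erythroblast-like and neutrophil-like cells 3 each, and lymphoid-primed and monocyte-like cells 2 each. The T/NK/ILC-like class had 42 and 36 cells and the megakaryocyte-like class 28 and 47, so their levels rest on few cells.

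**Figure D1:**
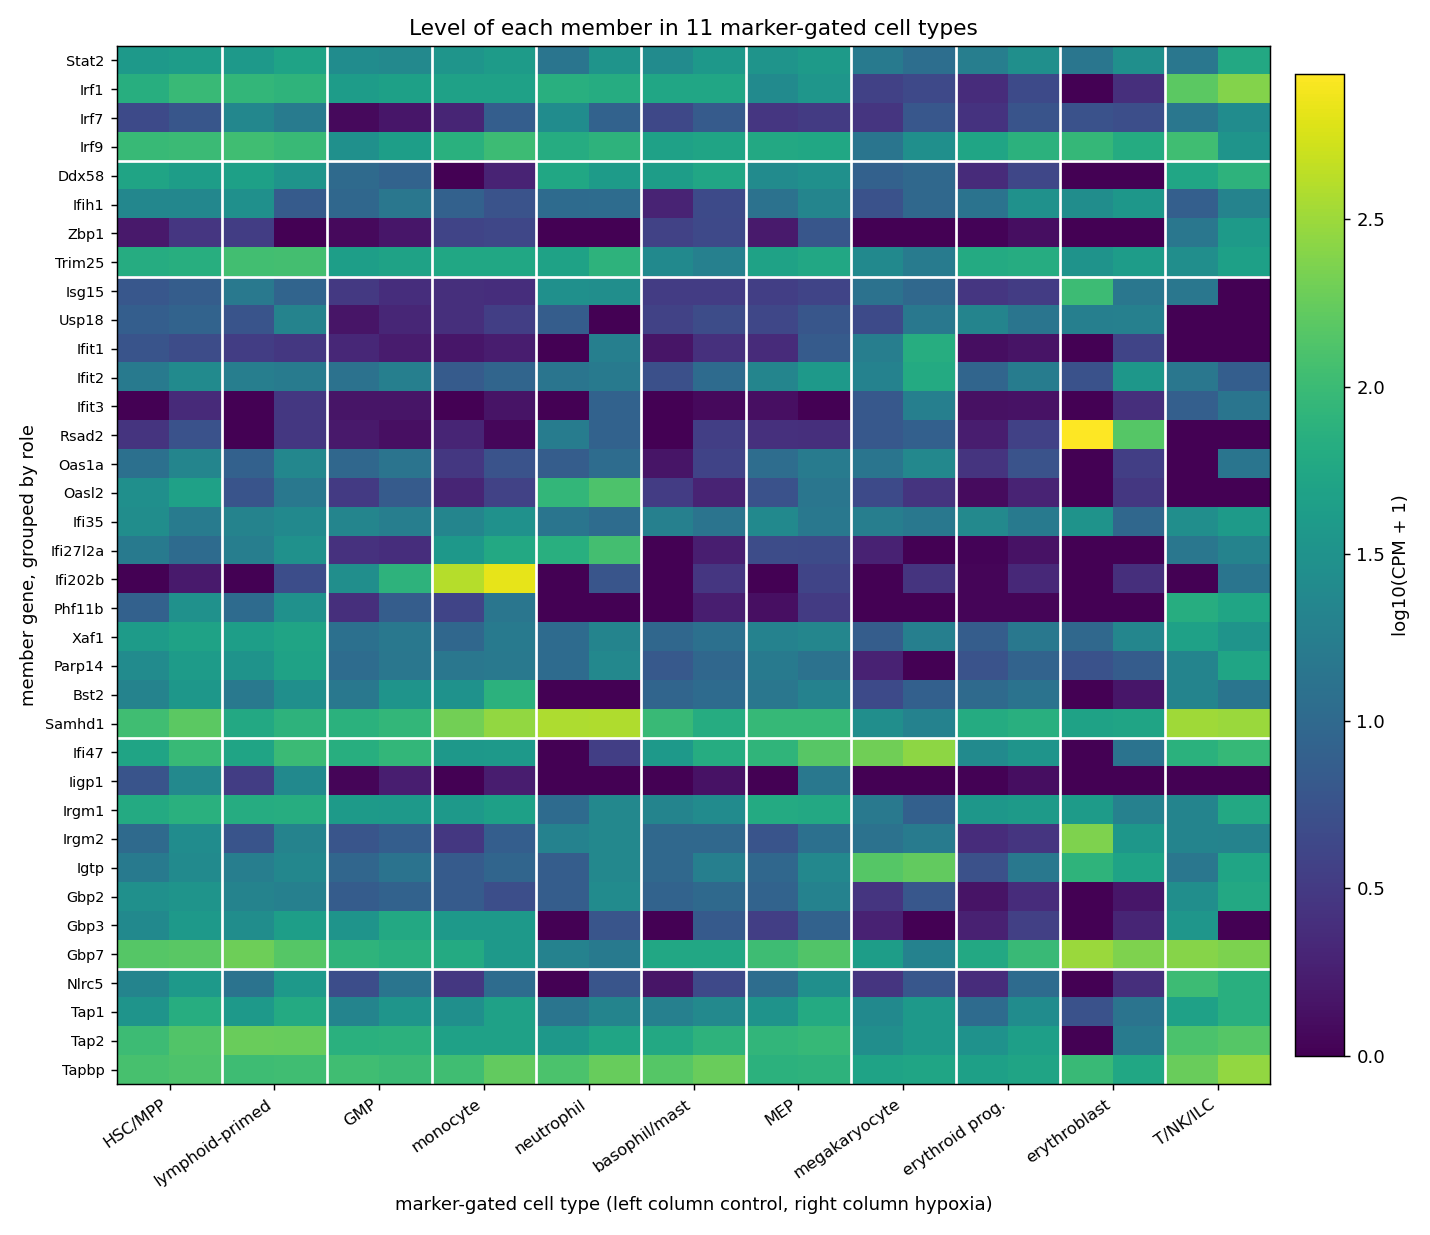
Level of each of the 36 genes (rows, ordered by role) in 11 marker-gated classes (columns, control left and hypoxia right within each), as colour on a log10(CPM + 1) scale. Samhd1, Tapbp, Tap2, Gbp7 and Irf9 are present across most classes, whereas Rsad2, Ifi202b, Ifit1 and Oasl2 stand out in 1 or 2.

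Among the transcription factors, Irf1, which switches on interferon-gamma targets, was highest in T/NK/ILC-like cells at 244.7 (173.2 to 335.8) and 154.1 (97.66 to 231.2) CPM. HSC/MPP-like cells followed in the hypoxia library at 95.51 CPM (80.88 to 112), below the T/NK/ILC-like interval. In the control library lymphoid-primed progenitor-like cells followed at 87.02 (60.95 to 120.5), whose interval overlaps. Irf1 was at 1.512 CPM in hypoxia erythroblast-like cells and had no UMI in the control ones. Irf9, the DNA-binding part of the type I complex, was spread more evenly, with 100.9 CPM in monocyte-like and 99.93 in HSC/MPP-like hypoxia cells and overlapping intervals. Its lowest levels were in megakaryocyte-like cells, 27.87 and 12.66 CPM. Stat2 lay between 10.45 and 57.95 CPM over the 11 hypoxia classes, and its highest 2 classes had overlapping intervals in both libraries. Irf7, which amplifies the type I response, was low throughout, at most 25.76 and 25.63 CPM.

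The RNA sensors differed in where they were found. Ddx58, which encodes RIG-I, reached 53.49 (47.42 to 60.12) CPM in hypoxia basophil/mast-like cells and 41.65 in control ones, while monocyte-like cells had 0.98 and 0 CPM and erythroid progenitor-like cells 3.213 and 1.298. Ifih1, which encodes MDA5, was lowest in the basophil/mast-like class (3.617 and 0.9359 CPM). It stood at 29.63 and 12.13 CPM in erythroid progenitor-like cells. The 2 sensors thus had opposite orders in the basophil/mast-like and erythroid progenitor-like classes. Trim25, the ubiquitin ligase that acts on RIG-I, was highest in lymphoid-primed progenitor-like cells in both libraries (114.5 and 108.8 CPM). Zbp1, a sensor of Z-form nucleic acid, was highest in T/NK/ILC-like cells at 38.63 and 13.4 CPM, from 6 and 2 UMIs. Its control interval there (1.622 to 48.39) overlaps that of monocyte-like cells. Zbp1 had no UMI in 4 hypoxia and 3 control classes.

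Several type I-type effectors were found largely in 1 class. Rsad2, which encodes viperin, was found mainly in globin-high erythroblast-like cells, at 145.1 (128.9 to 162.9) and 857 (740.7 to 986.5) CPM. The next class, neutrophil-like cells, had 7.433 and 16.02 CPM. Cells of the class were split by depth. Among erythroblast-like cells under 8000 UMIs, Rsad2 stood at 2433 (2147 to 2747) CPM in 20 hypoxia cells and 2068 (1786 to 2382) in 18 control cells. It was detected in 14 and 10 of those cells. At 8000 UMIs or more it stood at 14.38 CPM in 119 hypoxia cells and 14.98 in 9 control cells. Within each depth class the 2 libraries had overlapping intervals. Shallow cells were 20 of 139 in hypoxia and 18 of 27 in control.

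**Figure D2:**
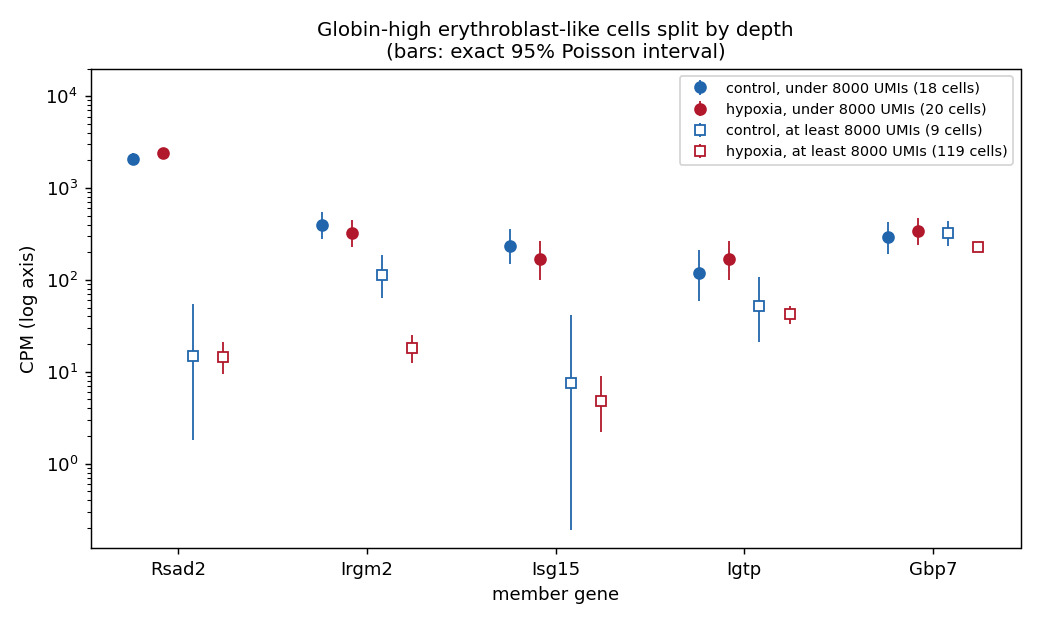
CPM on a log axis of 5 genes in erythroblast-like cells, split at 8000 UMIs per cell (filled circles below, open squares at or above; blue control, red hypoxia), with exact 95% Poisson intervals. Rsad2 lies at 2433 and 2068 CPM in shallow cells and at 14.38 and 14.98 CPM in deep cells, while Gbp7 lies between 226.4 and 344.9 CPM in all 4 sets.

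Other members shared part of that pattern. Irgm2, an immunity-related GTPase, stood at 326.3 and 398.5 CPM in shallow erythroblast-like cells and at 18.11 and 112.3 in deep ones. Isg15, a ubiquitin-like protein joined to other proteins during the response, stood at 167.8 and 237 CPM in shallow and 4.794 and 7.49 in deep cells. A single cell held 48.1% of the hypoxia and 60.9% of the control Isg15 UMIs of the class, so that level rests on few cells. The split was made after the data were seen, and the control deep set has 9 cells.

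Ifi202b, an Ifi200-family DNA-binding protein, was a monocyte-like gene here. Its level was 664 (645.3 to 683.2) and 407.6 (380 to 436.6) CPM in monocyte-like cells and 76.88 (72.55 to 81.4) and 27.47 (24.4 to 30.82) in granulocyte-monocyte progenitor-like cells. In the control library 8 of 11 classes had no Ifi202b UMI. At a common depth of 5000 UMIs per cell, 87.6% (84.2 to 90.4) and 83.5% (74.6 to 90.3) of monocyte-like cells had at least 1 UMI, against 0.643% and 0.0907% of erythroid progenitor-like cells. Before this thinning, at median depths of 14038 and 19943 UMIs, the monocyte-like shares were 96.9% and 97%. Ifi202b was among the 10 leading genes of the class although it was not used to define it.

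Ifit1, which binds foreign RNA caps, and Ifi47, a GTPase, were highest in megakaryocyte-like cells. Ifit1 stood at 66.18 (46.84 to 90.84) and 17.18 (10.35 to 26.84) CPM, and the next class had 17.34 and 4.709 CPM. A single cell supplied 50% and 36.8% of those UMIs. Ifi47 stood at 268.2 (227.5 to 314.1) and 199.9 (174.4 to 228) CPM there, above megakaryocyte-erythroid progenitor-like cells at 148.5 (128.7 to 170.6) and 82.68 (72.96 to 93.35). Igtp was also highest in megakaryocyte-like cells, at 167.2 and 143.8 CPM. Oas1a was highest there in both libraries, at 22.64 and 12.66 CPM, and Ifit3 in the hypoxia library alone, at 17.42 CPM. The intervals of these values overlap the next class.

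Oasl2, of the oligoadenylate synthetase family, and Ifi27l2a were highest in neutrophil-like cells. Oasl2 stood at 128.8 (96.23 to 169) and 86.49 (57 to 125.8) CPM, followed by HSC/MPP-like cells at 46.8 and 27.67. Ifi27l2a stood at 114 and 70.47 CPM, followed by monocyte-like cells at 58.52 and 35.73. In the control neutrophil-like class a single cell held 51.9% of the Oasl2 and 45.5% of the Ifi27l2a UMIs. Samhd1, which degrades deoxynucleotides, ran from 384.1 and 371.6 CPM in neutrophil-like cells through 283.5 and 200.3 in monocyte-like cells to 19.16 and 27.13 in megakaryocyte-like cells. Bst2, the membrane protein tetherin, was highest of the 11 classes in monocyte-like cells at 76.16 (69.89 to 82.84) and 30.69 (23.48 to 39.43) CPM. Plasmacytoid dendritic cell-like cells, outside these 11 with 63 and 10 cells, held more, 301.6 (261.4 to 346.2) and 62.34 (26.91 to 122.8) CPM. Phf11b was highest in T/NK/ILC-like cells at 51.51 and 66.98 CPM.

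**Figure D3:**
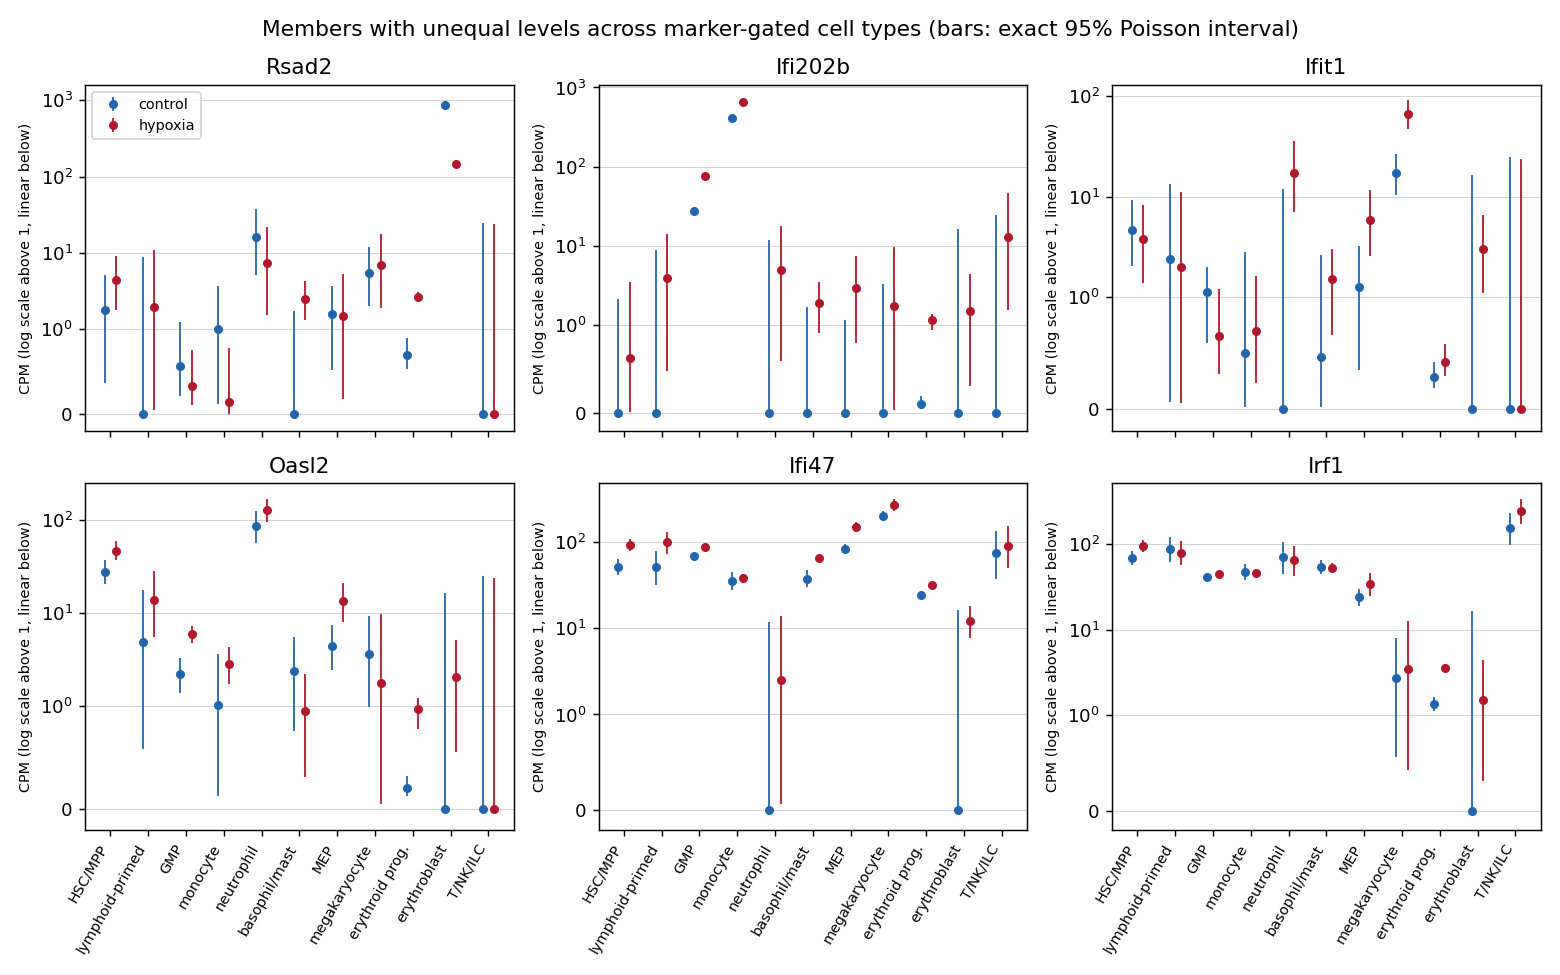
CPM of Rsad2, Ifi202b, Ifit1, Oasl2, Ifi47 and Irf1 in 11 classes (axis logarithmic above 1 and linear below; blue control, red hypoxia; bars are exact 95% Poisson intervals). Each gene has its highest level in the same class in both libraries: erythroblast-like for Rsad2, monocyte-like for Ifi202b, megakaryocyte-like for Ifit1 and Ifi47, neutrophil-like for Oasl2 and T/NK/ILC-like for Irf1.

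The GTPases and peptide loading genes varied in breadth. Igtp stood out in megakaryocyte-like cells against medians over the 11 classes of 22.17 and 8.891 CPM. Iigp1 had no UMI in 4 hypoxia and 7 control classes, and control Nlrc5 had a median of 2.013 CPM. Gbp7, Tapbp and Tap2 were present across most classes. Gbp7, a guanylate-binding protein, was highest in erythroblast-like cells at 232.8 (212.1 to 255) and 309.2 (241.1 to 390.7) CPM, with T/NK/ILC-like cells at 225.4 and 247.8 and overlapping intervals. Its lowest class was neutrophil-like, at 14.87 and 19.22 CPM. Tapbp, which encodes tapasin, was highest in T/NK/ILC-like cells (289.8 and 180.8 CPM) and lowest in erythroid progenitor-like cells (50.56 and 44.99 CPM). Tap2, a subunit of the peptide transporter, was highest in lymphoid-primed progenitor-like cells (175.7 and 183.7 CPM). Tap1, its partner, and Nlrc5 were highest in T/NK/ILC-like cells, at 70.83 and 46.89 CPM and at 70.83 and 100.5 CPM. All 4 peptide loading genes thus had their highest value in a lymphoid or lymphoid-primed class in both libraries, but most of these ranks lie within counting error. Intervals overlapped the next class for Tap1 and Tap2 in both libraries, Nlrc5 in hypoxia and Tapbp in control. The hypoxia Tap1 value came from 11 UMIs, with HSC/MPP-like cells next at 67.04 CPM.

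Between libraries, a gene was called higher or lower in a class past 1.5-fold on the log2 ratio of CPM + 1, with a minimum of 50 UMIs summed over the 2 libraries. Brackets after a pair of levels hold their ratio and its exact 95% interval, and brackets after a share hold its exact Clopper-Pearson interval. In erythroid progenitor-like cells 18 of 32 measured members were higher and 2 lower, where 8.75% of 11914 genes were higher and 3.74% lower. In HSC/MPP-like cells 12 of 26 were higher and 1 lower, against 7.14% and 6.21% of 8169 genes. That count was 7 with 10 CPM added, 6 with a stricter gate, 4 with cells thinned to 5000 UMIs and 1 with a minimum of 200 UMIs, with 0 lower in each. In monocyte-like cells 9 of 23 were higher and 1 lower, against 10.5% and 6.14% of 9436 genes. In granulocyte-monocyte progenitor-like cells 8 of 27 were higher and 0 lower, against 4.75% and 3.5% of 10673 genes. With 10 CPM added the erythroid count was 5, the monocyte-like 5 and the granulocyte-monocyte progenitor-like 4. The monocyte-like count also ran from 4 with the stricter gate to 14 with no minimum. Over all retained cells 17 of 36 were higher and 1 lower, against 8.92% and 3.22% of 14062 genes.

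In megakaryocyte-erythroid progenitor-like cells 7 of 22 members were higher and 1 lower, against 7.09% and 6.16% of 8621 genes. In basophil/mast-like cells 3 of 20 were higher and 0 lower, against 7.33% and 6.49% of 8897 genes. In neutrophil-like cells 5 members could be measured and 1 was higher, against 13.6% of 2143 genes. The median log2 ratio of the members was 0.70 in erythroid progenitor-like, 0.49 in HSC/MPP-like, 0.48 in monocyte-like, 0.36 in granulocyte-monocyte progenitor-like, 0.34 in basophil/mast-like and 0.31 in megakaryocyte-erythroid progenitor-like cells. The median over all measured genes lay between 0.01 and 0.07 in these 6 classes. A member that passed the minimum only through its higher library had to differ. This held for 4 of the 13 called in HSC/MPP-like, 3 of 10 in monocyte-like, 3 of 8 in megakaryocyte-erythroid progenitor-like, 2 of 20 in erythroid progenitor-like, 1 of 8 in granulocyte-monocyte progenitor-like and 1 of 3 in basophil/mast-like cells, so these counts are descriptions.

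**Figure D4:**
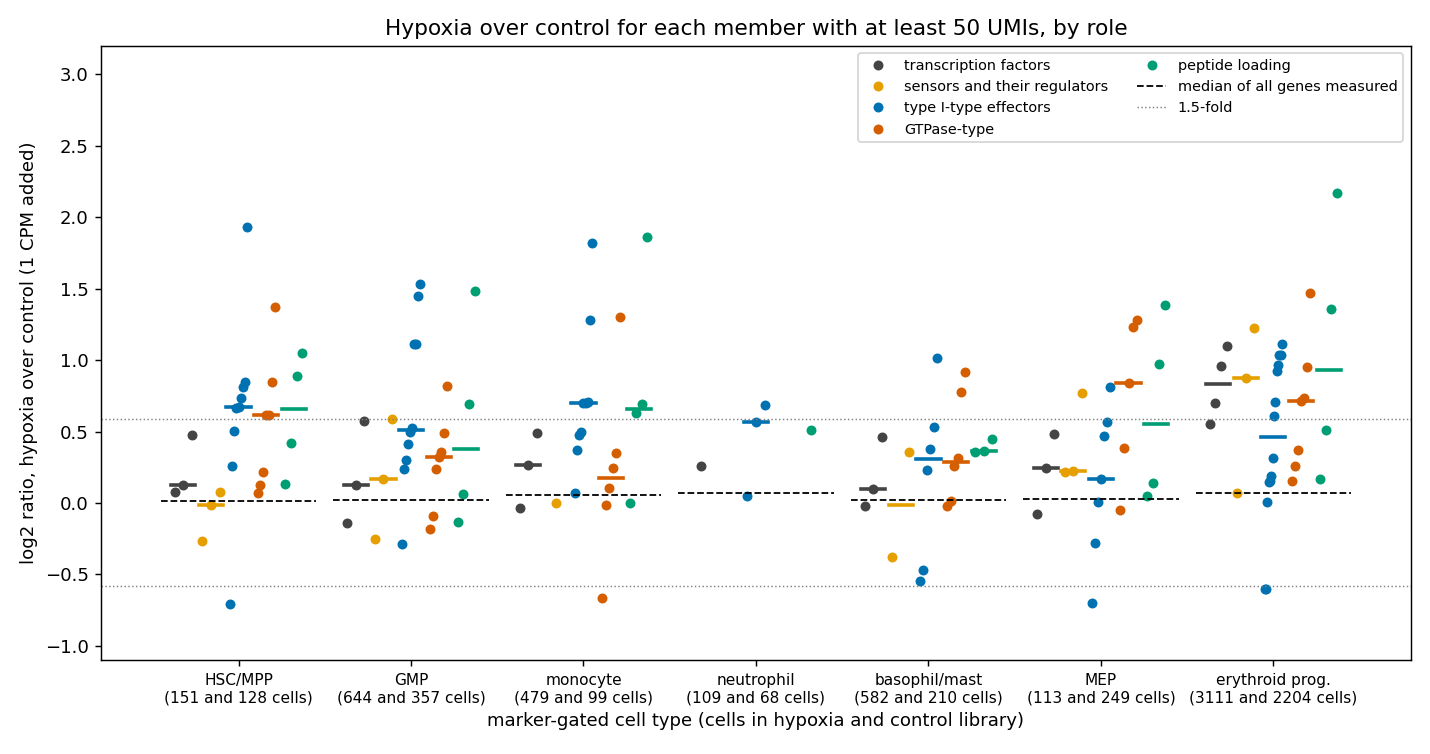
Log2 ratio of hypoxia over control (on CPM + 1) for each measured member, by role and class; short bars are role medians, the dashed line is the median of all genes measured in the class and dotted lines mark 1.5-fold. Most points lie above the dashed line, the role medians of sensors and transcription factors are 0.27 or lower outside erythroid progenitor-like cells, and Nlrc5 is the highest peptide loading point in 4 classes.

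Transcription factors were called in erythroid progenitor-like cells. There Irf7 stood at 4.74 and 1.68 CPM (ratio 2.82, 2.34 to 3.42), Irf1 at 3.6 and 1.364 CPM (2.64, 2.14 to 3.27) and Stat2 at 27.98 and 16.86 CPM (1.66, 1.56 to 1.77). Irf9 stood at 76.2 and 51.68 CPM, a ratio of 1.47. So 3 of 4 were higher in that class. Irf7 was under the minimum in the other 6 classes, and in monocyte-like cells it stood at 6.58 and 1.006 CPM from 47 and 2 UMIs. Irf1, Stat2 and Irf9 were past 1.5-fold in none of the other classes where they were measured, and whether classes differ was not tested. The HSC/MPP-like class had Irf1 at 95.51 and 68.29 CPM (1.399, 1.09 to 1.797) and Irf9 at 99.93 and 94.78 CPM, neither past 1.5-fold.

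Of the sensors, Ifih1 differed most often. It stood at 29.63 and 12.13 CPM in erythroid progenitor-like cells (2.44, 2.28 to 2.62), at 20.69 and 11.72 in megakaryocyte-erythroid progenitor-like cells (1.77, 1.04 to 2.96) and at 13.44 and 8.619 in granulocyte-monocyte progenitor-like cells (1.56, 1.21 to 2.02). The last of these lay at the limit, and 8 of its alternatives in processing fell below 1.5-fold, with a log2 ratio of 0.28 once cells were thinned to equal depth. Ifih1 was nearly level in HSC/MPP-like cells, at 21.5 and 21.78 CPM. Ddx58 was higher in erythroid progenitor-like cells, 3.213 and 1.298 CPM, and stood at 42.38 and 51.21 CPM in HSC/MPP-like cells. Trim25 was past 1.5-fold in none of the 6 classes where it was measured.

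Among the effectors, Phf11b, a PHD finger protein, had the largest ratio in HSC/MPP-like cells and in the granulocyte-monocyte class. It stood at 29.73 and 7.064 CPM in HSC/MPP-like cells (4.21, 2.20 to 8.72), 6.265 and 1.515 in granulocyte-monocyte progenitor-like cells (4.13, 2.42 to 7.52) and 13.16 and 3.019 in monocyte-like cells (4.36, 1.93 to 12.2), where the control value is 6 UMIs. At equal depth 12.8% (7.91 to 19.3) and 4.8% (1.78 to 10.2) of HSC/MPP-like cells had a Phf11b UMI. Its 3 classes reached the minimum through the hypoxia library alone, with 47 and 12, 96 and 16, and 94 and 6 UMIs. Erythroid progenitor-like cells held 9 and 8 Phf11b UMIs in all, too few to compare.

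Ifi202b was higher in granulocyte-monocyte progenitor-like cells, 76.88 and 27.47 CPM (2.80, 2.46 to 3.19), and in monocyte-like cells, 664 and 407.6 CPM (1.63, 1.51 to 1.76). The granulocyte-monocyte progenitor-like class also showed it in the share of cells: 22% (18.9 to 25.5) and 8.12% (5.51 to 11.5) at equal depth. The monocyte-like call ended with a stricter gate (log2 ratio 0.44) and with thinned cells (0.57). In erythroid progenitor-like cells it stood at 1.162 and 0.1091 CPM, and a single cell held 17.6% of the hypoxia UMIs. Over all retained cells Ifi202b was at 54.23 and 11.65 CPM, a wider gap than inside either myeloid class. Monocyte-like cells made up 7.63% of the hypoxia and 2.53% of the control library.

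Bst2 was higher in all 3 of the HSC/MPP-like, granulocyte-monocyte progenitor-like and monocyte-like classes. It stood at 34.79 and 19.43 CPM (1.79, 1.14 to 2.85), at 31.72 and 14.11 CPM (2.25, 1.87 to 2.72) and at 76.16 and 30.69 CPM (2.48, 1.90 to 3.29). The HSC/MPP-like call for Bst2 ended with the mean of per-cell CPM (log2 ratio 0.56). Oasl2 was higher in HSC/MPP-like cells, 46.8 and 27.67 CPM (1.69, 1.16 to 2.49), and in granulocyte-monocyte progenitor-like cells, 5.874 and 2.179 CPM. Oas1a and Parp14 were also higher in HSC/MPP-like cells, at 20.87 and 11.18 CPM (1.87, 1.03 to 3.47) and at 39.85 and 24.72 CPM (1.61, 1.07 to 2.44). With Leiden clusters in place of the gate Oas1a lost the call (log2 ratio 0.29). Ifit2 and the GTPase Igtp were also past 1.5-fold there, at 24.03 and 14.72 CPM and at 24.03 and 15.31 CPM, with ratio intervals that include 1. In monocyte-like cells Xaf1, a cell death factor, stood at 14.56 and 8.554 CPM (1.702, 1.01 to 3.03) and Ifi27l2a at 58.52 and 35.73 CPM, and both calls ended with the stricter gate.

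In erythroid progenitor-like cells the effectors that were higher were Rsad2 (2.677 and 0.6983 CPM), Oas1a (4.683 and 1.768), Xaf1 (13.89 and 6.263), Ifit2 (16.25 and 8.085), Ifi202b, Oasl2 and Parp14. Parp14, an ADP-ribosyltransferase, stood at 7.508 and 4.583 CPM and lost the call under both other scalings. Most of these are levels of a few CPM. Ifit2 was also higher in megakaryocyte-erythroid progenitor-like cells, 36.95 and 20.59 CPM (1.79, 1.22 to 2.64), and in basophil/mast-like cells, 9.518 and 4.211 CPM (2.26, 1.10 to 5.23).

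Usp18 and Ifi35 went the other way. Usp18, the protease that takes Isg15 off proteins and dampens receptor signalling, stood at 12.93 and 20.17 CPM in erythroid progenitor-like cells (0.641, 0.595 to 0.691). Ifi35 stood at 15.01 and 23.25 CPM there (0.645, 0.602 to 0.692) and at 15.81 and 26.49 CPM in HSC/MPP-like cells (0.597, 0.351 to 0.994). In megakaryocyte-erythroid progenitor-like cells it was at 14.04 and 23.44 CPM with an interval that includes 1. The erythroid call for Ifi35 ended under thinning, the stricter gate and Leiden clusters, at log2 ratios of -0.50 to -0.58. Isg15 itself showed no such difference in the erythroid class, at 2.279 and 1.877 CPM (interval of the ratio 0.985 to 1.497). In HSC/MPP-like cells Isg15, Usp18, Ifit1, Rsad2, Irf7, Zbp1, Ifit3, Ifi27l2a and Ifi202b had under 50 UMIs over both libraries, so most early type I targets could not be compared there.

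The GTPases differed by class. Ifi47 was higher in HSC/MPP-like cells at 92.98 and 51.21 CPM (1.82, 1.38 to 2.40), in megakaryocyte-erythroid progenitor-like cells at 148.5 and 82.68 CPM (1.80, 1.49 to 2.17) and in basophil/mast-like cells at 64.72 and 37.43 CPM (1.73, 1.35 to 2.23). At equal depth 37.2% (29.4 to 45.5) and 18.4% (12 to 26.3) of HSC/MPP-like cells had an Ifi47 UMI. With Leiden clusters the HSC/MPP call fell just below the limit (log2 ratio 0.55). Granulocyte-monocyte progenitor-like cells had it at 86.47 and 68.95 CPM, monocyte-like cells at 37.94 and 35.22 CPM and erythroid progenitor-like cells at 31.79 and 24.4 CPM, none past 1.5-fold.

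Igtp, which encodes Irgm3, was higher in erythroid progenitor-like cells at 13.97 and 4.397 CPM (3.18, 2.84 to 3.56) and in basophil/mast-like cells at 17.7 and 8.891 CPM (1.99, 1.21 to 3.46). In megakaryocyte-erythroid progenitor-like cells it was at 22.17 and 8.554 CPM, with 43.3% of the hypoxia UMIs in a single cell. Irgm2 was higher in HSC/MPP-like cells, 25.93 and 9.419 CPM (2.75, 1.51 to 5.26), and in monocyte-like cells, 6.44 and 2.013 CPM, where the control value is 4 UMIs. Its promoter window shown above is nearly that of Igtp, yet in erythroid progenitor-like cells Irgm2 stood at 1.834 and 1.364 CPM, not past 1.5-fold. Irgm1 was past 1.5-fold in none of the classes where it was measured. Iigp1 was under the minimum in all 7 classes, and HSC/MPP-like cells held 36 and 8 of its UMIs (22.77 and 4.709 CPM), as was Zbp1.

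Among the guanylate-binding proteins, Gbp3 was higher in granulocyte-monocyte progenitor-like cells at 57.82 and 32.3 CPM (1.79, 1.58 to 2.03), in HSC/MPP-like cells at 36.68 and 23.55 CPM (1.56, 1.02 to 2.39) and in erythroid progenitor-like cells at 2.552 and 0.8401 CPM. In basophil/mast-like cells it had 30 and 0 UMIs, under the minimum. Gbp2 was higher in megakaryocyte-erythroid progenitor-like cells, 19.21 and 7.603 CPM (2.53, 1.40 to 4.60), and in erythroid progenitor-like cells, 1.367 and 0.4255 CPM. Gbp7 was higher in erythroid progenitor-like cells, 96.58 and 58.53 CPM (1.65, 1.60 to 1.71), and lower in monocyte-like cells, 37.94 and 60.89 CPM (0.623, 0.501 to 0.779). At equal depth 36.2% (34.6 to 38) and 26.1% (24.3 to 28) of erythroid progenitor-like cells had a Gbp7 UMI, against 12.6% (9.76 to 16) and 20.6% (13.1 to 30) of monocyte-like cells. A single control cell held 9.09% of the monocyte-like UMIs, and without the cell richest in member UMIs in each library the monocyte call ended (log2 ratio -0.55). Gbp7 was nearly level in the HSC/MPP-like class, at 150.5 and 143 CPM (1.05, 0.876 to 1.26).

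Nlrc5 and Tap1 were each called higher in 5 classes. Nlrc5 (chr8:94434356-94527272), which switches on class I genes, stood at 9.605 and 1.353 CPM in erythroid progenitor-like cells (7.10, 5.87 to 8.64), 12.92 and 3.978 in granulocyte-monocyte progenitor-like cells (3.25, 2.32 to 4.65) and 28.08 and 10.14 in megakaryocyte-erythroid progenitor-like cells (2.77, 1.69 to 4.58). It stood at 37.95 and 20.01 CPM in HSC/MPP-like cells (1.90, 1.23 to 2.98). In monocyte-like cells it was at 9.94 and 2.013 CPM, where the control value is 4 UMIs. The monocyte-like (71 and 4 UMIs) and megakaryocyte-erythroid (38 and 32 UMIs) values passed the minimum only through the hypoxia library. At equal depth, Nlrc5 UMIs were found in 4.7% (3.98 to 5.5) and 0.499% (0.249 to 0.891) of erythroid progenitor-like cells and in 18.2% (12.4 to 25.4) and 8% (3.9 to 14.2) of HSC/MPP-like cells. Basophil/mast-like cells had 0.767% and 0%.

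Tap1 (chr17:34187553-34197225) was higher in the same 5 classes. It stood at 25.97 and 9.536 CPM in erythroid progenitor-like cells (2.72, 2.52 to 2.95), 67.04 and 31.79 in HSC/MPP-like cells (2.11, 1.51 to 2.98) and 61.34 and 30.73 in megakaryocyte-erythroid progenitor-like cells (1.996, 1.47 to 2.704). In granulocyte-monocyte progenitor-like and monocyte-like cells it stood at 33.22 and 20.17 CPM (1.65, 1.40 to 1.94) and at 46.2 and 28.18 CPM (1.64, 1.23 to 2.22), and those 2 calls ended with thinned cells and with the stricter gate respectively. In basophil/mast-like cells it stood at 23.03 and 17.78 CPM, not past 1.5-fold. Tap2 was past 1.5-fold in none, at 136.6 and 101.8 CPM in HSC/MPP-like and 43.76 and 30.44 CPM in erythroid progenitor-like cells. Tapbp was higher in monocyte-like cells only among the classes compared, 167.7 and 108.2 CPM (1.55, 1.34 to 1.80), and stood at 98.02 and 107.6 CPM in granulocyte-monocyte progenitor-like cells. Tap1 overlaps Psmb9 on the opposite strand, and Tap1 and Tap2 lie inside the H2 region of chromosome 17.

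**Figure D5:**
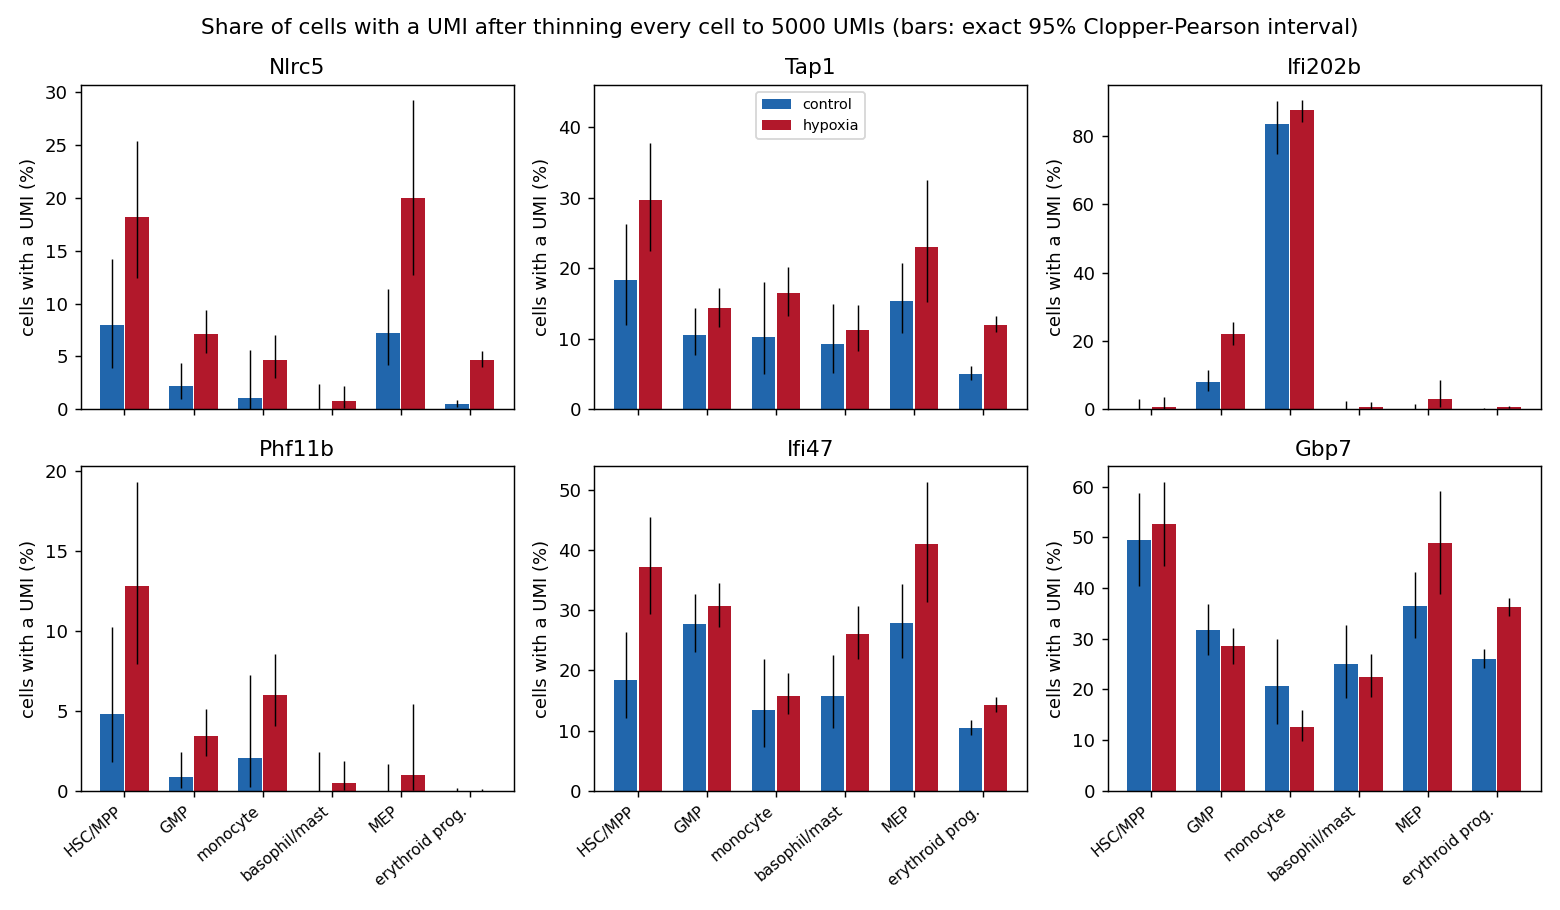
Share of cells with at least 1 UMI of Nlrc5, Tap1, Ifi202b, Phf11b, Ifi47 and Gbp7 in 6 classes after every cell was thinned to 5000 UMIs (blue control, red hypoxia; bars are exact 95% Clopper-Pearson intervals). The hypoxia bar is the higher for Nlrc5 and Tap1 in all 6 classes, Ifi202b is at most 3% outside the 2 myeloid classes, and Gbp7 is the lower in hypoxia in 3 of 6.

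Samhd1, Tapbp, Tap2, Irf9 and Trim25 had many UMIs and mostly stayed within 1.5-fold. Samhd1 stood at 154.3 and 108.3 CPM in HSC/MPP-like cells, 283.5 and 200.3 in monocyte-like cells, 87.52 and 74.07 in granulocyte-monocyte progenitor-like cells. Erythroid progenitor-like cells had 69.94 and 62.65 CPM. In basophil/mast-like cells it was at 65.29 and 95.93 CPM (0.681, 0.571 to 0.813), lower but not past 1.5-fold. Trim25 stood at 63.96 and 60.93 CPM in erythroid progenitor-like cells. In neutrophil-like cells Ifi27l2a passed 1.5-fold with an interval that includes 1, and Samhd1, Tapbp, Oasl2 and Irf9 did not pass it.

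Set side by side, the type I-type effectors and the GTPases had similar medians in some classes and not in others. Among HSC/MPP-like cells 6 of 9 effectors and 4 of 7 GTPases were higher, with median log2 ratios of 0.67 and 0.62. In erythroid progenitor-like cells 7 of 14 effectors were higher and 2 lower (median 0.46), and 4 of 7 GTPases were higher with a median of 0.71. In monocyte-like cells 5 of 9 effectors were higher with a median of 0.70, while 1 of 6 GTPases was higher and 1 lower (median 0.18). In granulocyte-monocyte progenitor-like cells the medians were 0.51 (4 of 10 higher) and 0.32 (1 of 7 higher). In megakaryocyte-erythroid progenitor-like cells the order was the reverse, 0.16 (1 of 7 higher) for effectors and 0.84 (3 of 5 higher) for GTPases. Of those 3, Igtp and Gbp2 passed the minimum only through the hypoxia library, and a single cell held 43.3% of the hypoxia Igtp UMIs. No alternative was run for this class. The shares of all genes called in each class are given with the member counts above. For the difference of the medians the alternatives were 10 CPM added, no minimum and Leiden clusters. A further one added Stat2, Irf7, Irf9 and the sensors to the effectors. Thinning and the stricter gate were not among them. In these alternatives the difference kept its sign for the monocyte-like (0.52) and granulocyte-monocyte progenitor-like (0.19) classes. It turned in at least 1 for the HSC/MPP-like (0.05) and erythroid progenitor-like (-0.25) classes.

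Peptide loading genes had the highest role median in erythroid progenitor-like cells, 0.93 with 2 of 4 higher, and stood at 0.66 in HSC/MPP-like cells (2 of 4), 0.66 in monocyte-like cells (3 of 4) and 0.56 in megakaryocyte-erythroid progenitor-like cells (2 of 4). Counting members per cell at equal depth gave the same direction. A thinned HSC/MPP-like cell held UMIs of 6.79 and 5.41 members on average, an erythroid progenitor-like cell 2.96 and 2.23, a monocyte-like cell 5.46 and 4.57 and a granulocyte-monocyte progenitor-like cell 3.99 and 3.4. In basophil/mast-like cells effectors per cell were 0.394 and 0.454, lower in hypoxia, while GTPases were 0.795 and 0.592.

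Marker lists of other classes moved with the libraries in the same cells. In the HSC/MPP-like class the summed level of 7 lymphoid-primed markers was 798.8 and 548 CPM, of 7 basophil/mast markers 285.3 and 84.18 CPM and of 10 erythroblast markers 122.1 and 34.73 CPM, against 2949 and 2740 CPM for its own 10 markers. Of these other lists 6 and 6, 7 and 5, and 9 and 7 markers had a UMI. In the erythroid progenitor-like class 9 monocyte markers summed to 15.49 and 4.397 CPM, 7 basophil/mast markers to 53.84 and 11.97 CPM and 10 erythroblast markers to 2044 and 981 CPM. All of the lists named in that class had a UMI for each marker in both libraries. In the granulocyte-monocyte progenitor-like class 8 neutrophil markers summed to 183.9 and 488.3 CPM, and in the basophil/mast-like class 6 eosinophil markers to 958.8 and 163.3 CPM and 9 monocyte markers to 241.9 and 67.85 CPM. The monocyte-like class had its own markers at 7424 and 6509 CPM and basophil/mast markers at 73.64 and 20.13 CPM. Their part in the results was not tested.

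Within the erythroid class, some clusters came almost wholly from 1 library. In the 3 erythroid clusters in which neither library exceeded 75% of cells (1464 hypoxia and 1425 control cells), a choice made after seeing the data, 17 of 29 measured members were higher and 1 was lower, against 8.89% and 3.66% of 11045 genes. There Nlrc5 stood at 10.25 and 1.483 CPM, Tap1 at 27.19 and 9.412 CPM, Igtp at 13.37 and 3.836 CPM and Gbp7 at 89.91 and 56.26 CPM, while Usp18 was lower at 10.63 and 20.41 CPM. Some ratios were smaller there: the log2 ratio was 0.72 for Ifit2, 0.91 for Rsad2 and 0.88 for Xaf1, against 0.92, 1.11 and 1.04 in the whole class. Parp14 (0.53) and Ifi35 (-0.49) lost their calls, and Ifi202b fell under the minimum. Scaling by TMM factors moved the median log2 ratio of all genes in the whole erythroid class from 0.07 to -0.04, and 16 members were then higher.

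Other genes of the pathway that are not members were read the same way. The 9 interferon genes looked for had too few UMIs to compare in any of the 7 classes. The counts that follow stand beside 8.75% of all genes called higher and 3.74% lower in erythroid progenitor-like cells, 7.14% and 6.21% in HSC/MPP-like, 10.5% and 6.14% in monocyte-like and 4.75% and 3.5% in granulocyte-monocyte progenitor-like cells. Further type I targets were higher for 16 of 28 measured in erythroid progenitor-like cells and lower for 0, including Ly6e (776.1 and 466.3 CPM), Eif2ak2, which encodes the kinase PKR (56.27 and 33.78 CPM), and Oas3 (2.939 and 0.5674 CPM). They were higher for 6 of 20 in HSC/MPP-like cells, including Lgals3bp (158.1 and 94.78 CPM) and Herc6 (36.68 and 18.25 CPM). In monocyte-like cells 9 of 23 were higher, among them Mx1 (12.32 and 5.032 CPM), and Ifitm1 was lower (57.4 and 93.09 CPM). In granulocyte-monocyte progenitor-like cells 2 of 24 were higher and 1 lower. Of the remaining classes, 7 of 22 were higher in megakaryocyte-erythroid progenitor-like cells (7.09% of all genes), 3 of 21 in basophil/mast-like cells (7.33%), and 1 of 7 in neutrophil-like cells (13.6%), where 2 were lower (7.33%). Few of the further GTPases could be measured. They were higher for 3 of 3 in erythroid progenitor-like, 2 of 3 in HSC/MPP-like and 1 of 1 in megakaryocyte-erythroid progenitor-like cells. In granulocyte-monocyte progenitor-like cells 0 of 2 and in monocyte-like cells 0 of 1 were called.

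Upstream of these genes, the kinase gene Jak2 was higher in erythroid progenitor-like cells (77.6 and 40.66 CPM) and in monocyte-like cells (100.7 and 45.29 CPM). It was the 1 higher of 9 measured receptor and kinase genes in the erythroid class (8.75% of all genes). In the monocyte-like class it was the 1 higher of 8 (10.5%), and 1 other was lower (6.14%). Mavs, the adaptor of RIG-I and MDA5, was lower in both classes (23.91 and 42.25 CPM, and 26.88 and 42.77 CPM). In each of the 2 classes Mavs was the 1 lower of 11 signalling genes. A further 2 were higher, among them Irf8 in the erythroid (2.472 and 0.3928 CPM) and Irf5 in the monocyte-like class (38.5 and 20.13 CPM). Irf8 is also on the list of 9 monocyte markers, which summed to 15.49 and 4.397 CPM in the erythroid class. Whether its level there came with those markers was not tested. In HSC/MPP-like cells 0 of 10 measured signalling genes were called. Of 11 genes that supply or load peptides beside the members, B2m, the class I light chain, stood at 1031 and 480.3 CPM in erythroid progenitor-like cells and 2014 and 1396 CPM in HSC/MPP-like cells. Psmb9, an immunoproteasome subunit, was higher in both, at 23.82 and 11.35 CPM and at 106.3 and 67.11 CPM. In the list as a whole 3 of 11 were higher in the erythroid class (8.75% of all genes) and 1 of 11 in the HSC/MPP-like class (7.14%), the latter near the share of all genes.

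Cells with UMIs of several early type I targets were counted at the deposited depths. Of 10 early targets (Isg15, Usp18, Ifit1, Ifit3, Rsad2, Oasl2, Irf7, Zbp1, Ifi27l2a and Oas1a), at least 4 were detected in 50 of 6280 hypoxia cells (0.796%, 0.591 to 1.05) and 22 of 3917 control cells (0.562%, 0.352 to 0.849). At least 6 were found in 5 and 2 cells. The cell with the most, 8 of 10, was a hypoxia erythroid progenitor-like cell with 19 Usp18, 12 Oasl2, 10 Ifit1 and 8 Isg15 UMIs among 47667. None of the 10 was seen in 58.4% and 53.5% of cells, which does not limit how many cells express these low genes. Depth was lower in the hypoxia library. The 10 were picked after the data had been seen.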

How the data were processed

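The authors deposited raw UMI counts for each gene in each cell. Per the file headers they came from version 1.7.1 of the BD WTA Rhapsody Analysis Pipeline, with genome GRCm38 and annotation GENCODE vM19. The submitters' processing notes name Bowtie2 as a tool. Cell calling before deposit is not described in the sources used here. Cells with at least 500 UMIs, 200 genes and under 20% mitochondrial UMIs were kept, and Scrublet (scanpy 1.11.5, seed 0) removed 112 hypoxia (1.75%) and 33 control (0.834%) cells as doublets.

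For each class, log1p counts per 10000 of each marker were divided by their 95th percentile among detecting cells and capped at 1. A cell joined the class with the highest mean if this reached 0.3 and led by 0.05. Of the gated cells 465 hypoxia and 275 control cells lay within 0.05 of a limit. UMIs were summed per class and scaled to CPM, and log2 ratios add 1 CPM. Sums have exact Poisson intervals, ratios exact intervals and shares exact Clopper-Pearson intervals. They treat UMIs as independent and leave out variation between cells, animals and preparations. Where no UMI was found, the upper limit was that of the same exact Poisson interval. For shares, cells were thinned to 5000 UMIs and shallower cells left out. With 1 library per group no test was run. The interval code was tested on simulated counts. Python 3.11.15, numpy 2.4.6, scipy 1.17.1, pandas 2.3.3 and leidenalg 0.10.2 were used.

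The members and lists were chosen with earlier results of these data known. Named in each class were members past 1.5-fold with at least 50 UMIs and a ratio interval without 1 (at most 8 each way), and the 5 highest by CPM; across classes, the highest of each role. Other members were named after their values were seen, as were the gate limits, the cell minimums, the 8000-UMI split, the choice of printed windows and the genes drawn in the figures. Near-identical paralogs (Ifit, Oas1, Gbp, Phf11 and Ifi200 families) may share reads. Other settings tried are given in the closing section.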

Additional observations from a re-analysis of the deposited data

Results flagged for a closer look

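Gbp7 went in opposite directions in 2 classes of the same libraries. Its log2 ratio of hypoxia over control was 0.71 in erythroid progenitor-like cells (96.58 and 58.53 CPM) and -0.67 in monocyte-like cells (37.94 and 60.89 CPM). With 1 library per group the difference between the classes was not tested. The monocyte-like value rests on 99 control cells.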

How the results depend on the processing

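Alternatives were run for the HSC/MPP-like, erythroid progenitor-like, monocyte-like and granulocyte-monocyte progenitor-like classes only. There no called gene changed direction in a setting where it reached the minimum. The alternatives did turn the difference between the effector and GTPase medians in HSC/MPP-like cells with Leiden clusters (-0.06) and with Stat2, Irf7, Irf9 and the sensors added to the effectors (-0.24), and in erythroid progenitor-like cells with Leiden clusters (0.01). Adding 10 CPM in place of 1 left 7 higher members in HSC/MPP-like, 5 in erythroid progenitor-like, 5 in monocyte-like and 4 in granulocyte-monocyte progenitor-like cells and 0 lower in all 4, by construction, since it shrinks the ratios of low genes. A minimum of 200 UMIs left 1 and 0 (higher and lower) in HSC/MPP-like and 5 higher in monocyte-like cells, and no minimum gave 2 lower in HSC/MPP-like and 14 higher and 2 lower in monocyte-like cells. Thinned cells gave 4 and 0 in HSC/MPP-like, 5 and 2 in monocyte-like and 1 lower in erythroid progenitor-like cells. The stricter gate gave 6 and 0 in HSC/MPP-like, 1 lower in erythroid progenitor-like and 4 higher in monocyte-like cells. Mean per-cell CPM, Leiden clusters and the shared erythroid clusters each gave 1 lower erythroid member, and leaving out the richest cell gave 0 lower monocyte-like members. The cause was not tested beyond fewer members reaching the minimum. Other settings, among them TMM and median-of-ratios factors, kept doublets and a mitochondrial limit of 10%, left these counts within 1.5 times. Of the single-gene values 585 stayed within counting error and 62 did not. Without the H2 region genes only Nlrc5 and Tapbp were left, so the peptide loading median is the midpoint of these genes. It was 1.17 in erythroid progenitor-like, 1.24 in monocyte-like and 0.68 in granulocyte-monocyte progenitor-like cells. The log2 ratios of Nlrc5 and Tapbp were 2.17 and 0.17, 1.86 and 0.63, and 1.48 and -0.13 in these classes. In HSC/MPP-like cells they were 0.89 and 0.13, against a median of 0.66 over all 4 genes. No paired analysis was possible because each group has 1 library. Depth limits the neutrophil-like class most, where 5 of 36 members reached 50 UMIs, against 20 to 32 in the other 6 classes.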

Other observations

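Plasmacytoid dendritic cell-like and eosinophil-like cells reached 50 cells in the hypoxia library alone (63 and 10, and 66 and 16 cells), so they entered no comparison. In the former Bst2, a known surface marker of plasmacytoid dendritic cells, stood at 301.6 CPM in hypoxia and 62.34 in control.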
